A study of Mus musculus with 4 samples.

Results

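The antioxidant program of the transcription factor Nrf2 was examined in mouse liver through 10 genes, taken by symbol from the 24346 genes listed in each library. They were Nfe2l2, which encodes Nrf2, its classic targets Nqo1, Hmox1, Gclc, Gclm, Srxn1, Txnrd1 and Slc7a11, and the antioxidant enzyme genes Gpx4 and Sod2. Liver RNA of male wild type C57BL/6 mice, 8 weeks old when feeding began, had been sequenced after 3 weeks on a steatohepatitis-inducing diet rich in fat, cholesterol, sucrose and bile salt (NASH diet), either as such (control group, n = 2) or with added 7-ketocholesterol (7KC group, n = 2). 7KC is a product of cholesterol oxidation, and the comparison asked what it added to the NASH diet. Both groups ate the NASH diet, so no liver from a mouse on ordinary chow entered the comparison. Expression was given as FPKM, the mapped fragments of a gene scaled by the length of its exons and by all mapped fragments of the library.

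Nrf2 is held at a low level in unstressed cells by Keap1, which presents it to the Cul3-Rbx1 ubiquitin ligase for degradation. Oxidants and electrophiles modify Keap1, and the Nrf2 that escapes degradation pairs with a small Maf protein at antioxidant response elements, where Bach1 competes as a repressor. Its targets supply glutathione and NADPH, reduce thioredoxin and peroxiredoxin, detoxify quinones and degrade heme. Since much of this control acts on the Nrf2 protein, the messenger RNA of Nfe2l2 itself is not a measure of Nrf2 activity. In the liver the pathway works in hepatocytes as well as in macrophages, where Hmox1 is abundant.

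The core of the antioxidant response element was searched in the stretch from 250 bases before to 50 bases after each transcription start, as given by RefSeq on GRCm38.p6, to show where Nrf2 could bind near these genes. The motif searched was TGACNNNGC on either strand. It was present at 4 of the 8 genes with an entry, Nfe2l2, Gclm, Srxn1 and Txnrd1, against 14.0% of all 27025 genes in the table, and was not found in the windows of Nqo1, Slc7a11, Gpx4 and Sod2. Hmox1 and Gclc had no entry. A gene with several starts has several windows, and by window the motif was in 4 of 13 against 12.4% of all 32851. Among 97 further genes of the wider pathway, described below, 19.6% held it. The matches are printed on the gene's strand with the core in capitals, which for the last 3 reads as its reverse complement. For Nfe2l2 it lay at positions -240 to -232 from the start (chr2:75704869-75704913, minus strand), for Srxn1 at 29 to 37 (chr2:152105542-152105570, plus strand), for Gclm at -134 to -126 (chr3:122245397-122245457, plus strand), and for Txnrd1 at -92 to -84 from 1 of its 3 starts (chr10:82859088-82859148, plus strand). A match describes letters in a window and is not evidence of binding.
Nfe2l2: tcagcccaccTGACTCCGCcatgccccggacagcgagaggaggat
Srxn1: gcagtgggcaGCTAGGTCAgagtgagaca
Gclm: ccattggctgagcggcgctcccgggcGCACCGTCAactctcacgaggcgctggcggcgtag
Txnrd1: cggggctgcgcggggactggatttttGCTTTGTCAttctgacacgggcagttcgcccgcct

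Libraries held 13650000 to 17000000 mapped reads, as recovered from the steps between low values, and 10967 to 11415 genes reached 1 FPKM. Of the 12299 genes tested with limma, those with a mean of at least 0.5 FPKM, 59 (0.48%) passed the threshold of an adjusted p under 0.05 as higher with 7KC and 3 (0.0244%) as lower, 62 (0.504%) in all. The summed FPKM was 685028 and 671235 for the controls but 619828 and 557138 with 7KC. Bringing all libraries to the same sum therefore moved the median over all tested genes from a log2 change of -0.03 to 0.17, and directions are given below with this second scaling wherever it turned them.

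None of the 10 genes passed the threshold, and 5 of the 9 that could be tested were higher at an unadjusted p under 0.05: Srxn1, Hmox1, Nqo1, Gclc and Nfe2l2. Among all tested genes, 12% were higher and 5.81% lower at that unadjusted p. Neither 7KC library overlapped a control, and both were higher, for 6 of the 9 tested genes. Both were lower for Gclm, while Gpx4 and Sod2 overlapped. For all tested genes these shares were 25.1% higher and 27.4% lower. The median log2 change of the 9 genes was 0.37 against -0.03 over all tested genes. With the libraries brought to the same sum, 8 of the 9 genes lay above without overlap and none below, where all tested genes gave 46.5% and 7.86%, and the median of the 9 lay 0.41 above that of all genes, compared with 0.39 on the deposited scale. The labels number the libraries but do not tie them to animals, so p-values measure the spread between these libraries, which may be technical.

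**Figure D1:**
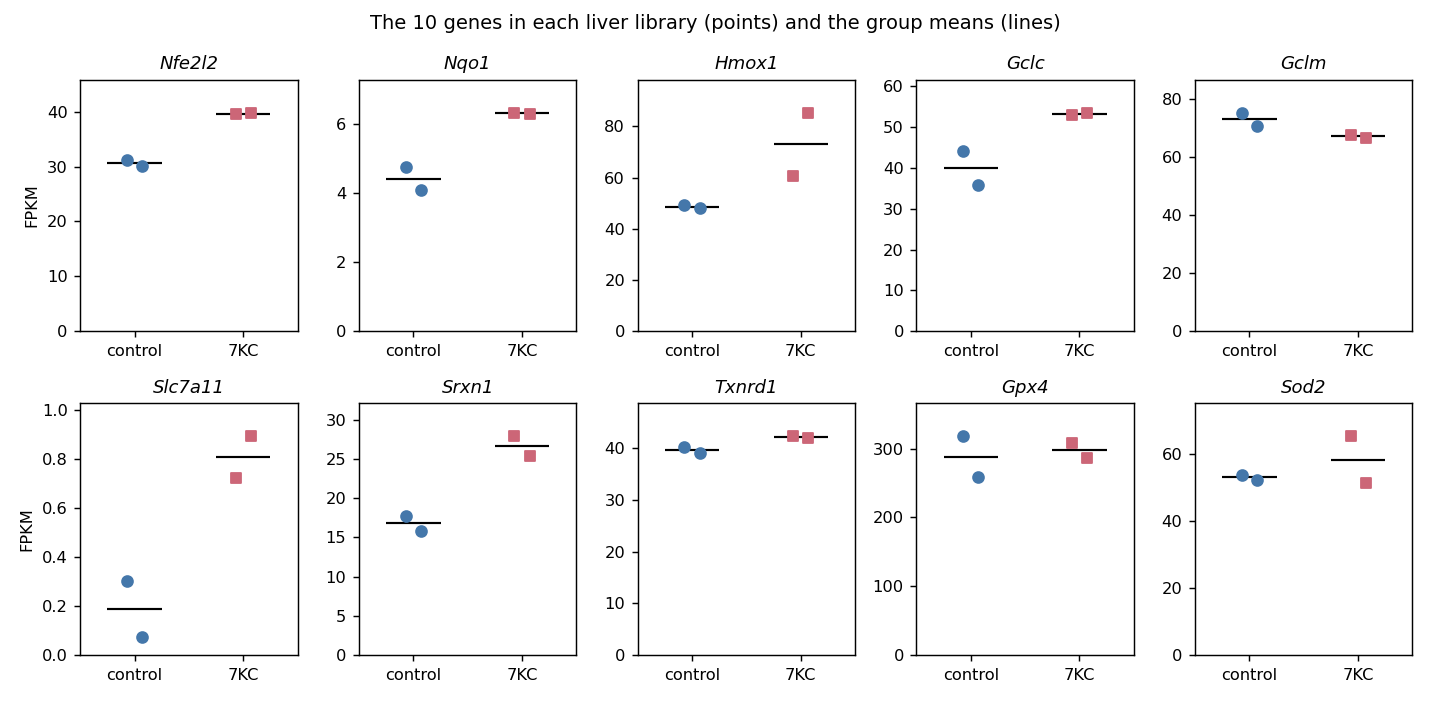
FPKM of each of the 10 genes in every library (y axes in FPKM from 0, each gene on its own scale; x axes show the group; circles are control and squares 7KC libraries, replicate 1 left of replicate 2, lines the group means, n = 2 each). Nfe2l2, Nqo1, Gclc and Srxn1 show 2 close 7KC libraries above both controls, Hmox1 shows 2 separated 7KC libraries at 60.6 and 85.4, and Gclm lies slightly lower in the 7KC group.

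Nfe2l2 (minus strand of mm10 chromosome 2, bases 75675513 to 75704641) measured 31.3 and 30.1 FPKM in control replicates 1 and 2 and 39.5 and 39.9 FPKM in 7KC replicates 1 and 2. The 7KC libraries lay closely together above both control libraries. The means were 30.7 ± 0.792 (SD, n = 2) and 39.7 ± 0.251 (SD, n = 2), a 1.29-fold ratio. The log2 change in limma came to 0.37 ± 0.10 (SE, adjusted p = 0.174). Log2 changes are differences of log2(FPKM + 0.5), 7KC minus control.

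Nqo1 (minus strand of chromosome 8, bases 107388225 to 107403206), a quinone reductase used widely as a readout of Nrf2, was at 4.76 and 4.08 FPKM in the control and 6.33 and 6.29 FPKM in the 7KC libraries. The groups did not overlap, and the ratio of the means was 1.43-fold (log2 change 0.47 ± 0.13 SE, limma adjusted p = 0.168). Hmox1 (plus strand of chromosome 8, bases 75093621 to 75100589) encodes heme oxygenase, which degrades heme to biliverdin, iron and carbon monoxide. The control libraries held 49.3 and 48.0 FPKM of it, the 7KC libraries 60.6 and 85.4 FPKM. Both 7KC libraries were above the control libraries, but they lay far apart, and the size of the difference rested on 7KC replicate 2. The log2 change was 0.56 ± 0.18 (SE, limma adjusted p = 0.219), and it was 0.31 without 7KC replicate 2 and 0.81 without 7KC replicate 1.

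Glutathione is made in sequence from cystine uptake by the exchanger Slc7a11 and from the joining of glutamate and cysteine by glutamate-cysteine ligase, of which Gclc is the catalytic and Gclm the modifier subunit. Gclc (plus strand of chromosome 9, bases 77754535 to 77794485) was at 44.2 and 35.8 FPKM in the control and 52.9 and 53.6 FPKM in the 7KC libraries. The groups did not overlap, with control replicate 2 the lowest library. The ratio of the means was 1.33-fold (log2 change 0.42 ± 0.14 SE, limma adjusted p = 0.223), and the log2 change was 0.27 without control replicate 2.

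Gclm (plus strand of chromosome 3, bases 122245557 to 122270732) was at 75.4 and 70.6 FPKM in the control and 67.7 and 66.6 FPKM in the 7KC libraries. It was the 1 gene of the set that was lower without overlap. The difference was small (log2 change -0.12 ± 0.11 SE, limma adjusted p = 0.601) and turned to 0.09, with overlap, once libraries were brought to the same sum. The ratio of Gclc to Gclm, in which library scaling cancels, came to 0.587 and 0.507 for the controls and to 0.782 and 0.805 with 7KC. It was thus higher in both 7KC libraries, without overlap, under any library scaling. An exact permutation test of the log2 ratio gave p = 0.333 (2-sided), the smallest it can give with 2 libraries a group. Any ratio without overlap gives this value, so the test cannot decide. The ratio was not among the results planned beforehand.

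Slc7a11 (minus strand of chromosome 3, bases 49892526 to 50443614) was at 0.302 and 0.0717 FPKM in the control and 0.723 and 0.893 FPKM in the 7KC libraries. The groups did not overlap and the ratio of the means was 4.33-fold, the largest of the 10 genes, at the lowest level of the 10. Its mean over the 4 libraries was 0.497 FPKM, just under the filter, so it was not among the tested genes. When the filter was dropped, limma put the log2 change at 0.95 ± 0.20 (SE) with an adjusted p of 0.188, a log2 change that the pseudocount of 0.5 FPKM holds down. Over the longest annotated transcript, of 9223 bases, its values corresponded to about 46 and 9 control reads and 89 and 111 reads with 7KC.

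Srxn1 (plus strand of chromosome 2, bases 152105516 to 152111376) encodes sulfiredoxin, which restores peroxiredoxins that have been over-oxidized. It was at 17.7 and 15.9 FPKM in the control and 27.9 and 25.3 FPKM in the 7KC libraries. The groups did not overlap, and the gap between them was larger than the spread within either. The means were 16.8 ± 1.31 (SD, n = 2) and 26.6 ± 1.82 (SD, n = 2), a 1.59-fold ratio. The log2 change of 0.65 ± 0.12 (SE; 95% interval 0.35 to 0.95; limma adjusted p = 0.0828) was the largest among the 9 tested genes, at or above that of 91.1% of all tested genes. With libraries brought to the same sum it was 0.86 and passed the threshold (limma adjusted p = 0.0287). Over 12 other settings of the processing its log2 change ran from 0.57 to 0.86 and its adjusted p from 0.0287 to 0.342.

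Txnrd1 (plus strand of chromosome 10, bases 82833951 to 82897712), the cytosolic thioredoxin reductase, was at 40.2 and 39.1 FPKM in the control and 42.4 and 42.1 FPKM in the 7KC libraries. The groups did not overlap but differed by little, 1.06-fold between the means (log2 change 0.09 ± 0.10 SE, limma adjusted p = 0.684). Its 95% interval on the log2 scale ran from -0.17 to 0.35.

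Gpx4 (plus strand of chromosome 10, bases 80047166 to 80056439), the peroxidase that reduces lipid peroxides in membranes and restrains ferroptosis, was at 318 and 259 FPKM in the control and 309 and 287 FPKM in the 7KC libraries. It was the most abundant of the 10 genes by FPKM, and both 7KC libraries lay between the control libraries. The log2 change was 0.05 ± 0.15 (SE; 95% interval -0.34 to 0.44; limma adjusted p = 0.892), and its sign turned when control replicate 2 or 7KC replicate 1 was left out. Sod2 (plus strand of chromosome 17, bases 13006846 to 13040063), the mitochondrial superoxide dismutase, which is also induced by inflammatory signals, was at 53.9 and 52.3 FPKM in the control and 65.4 and 51.4 FPKM in the 7KC libraries. Only 7KC replicate 1 lay above the controls, while 7KC replicate 2 was the lowest of the 4 libraries. The difference (log2 change 0.13 ± 0.15 SE, limma adjusted p = 0.695) became -0.05 without 7KC replicate 1. The overlap of both genes held on the deposited scale alone. With libraries brought to the same sum, both were higher without overlap, with log2 changes of 0.26 for Gpx4 and 0.33 for Sod2.

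**Figure D2:**
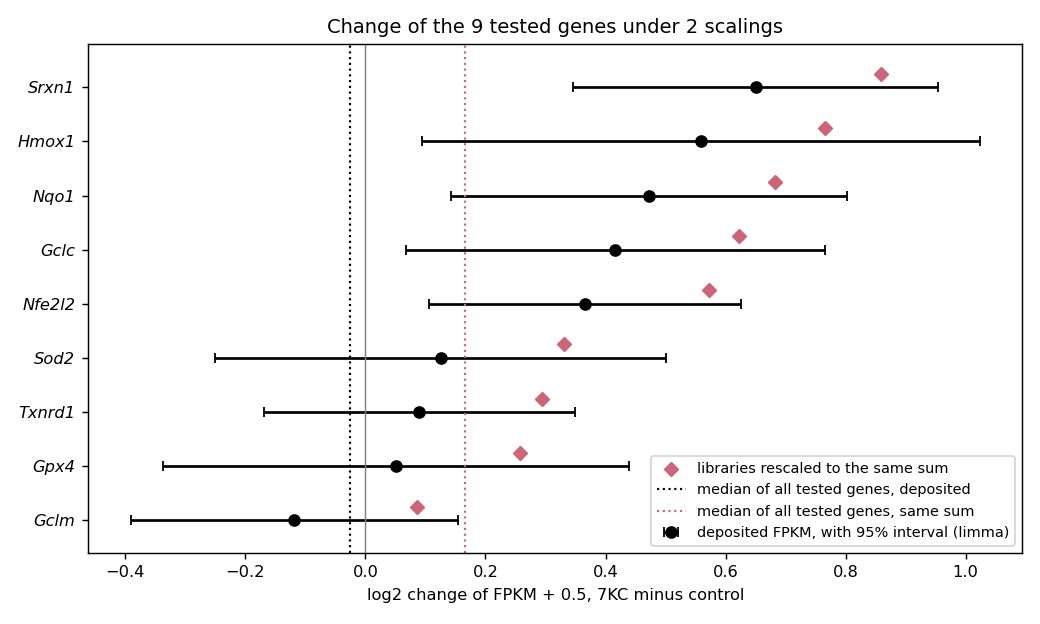
Log2 change of FPKM + 0.5, 7KC minus control, for the 9 tested genes (x axis; genes on the y axis), as deposited with the 95% interval from limma (black) and with libraries brought to the same sum (diamonds); dotted lines mark the median of all tested genes under each scaling, -0.03 and 0.17. The intervals of Srxn1, Hmox1, Nqo1, Gclc and Nfe2l2 lie above 0, those of Sod2, Txnrd1, Gpx4 and Gclm include 0, and Gclm moves from -0.12 to 0.09.

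Cell type markers moved between the same libraries. In bulk liver RNA, fewer cells of a type and less RNA per cell cannot be told apart. Summed FPKM of 12 hepatocyte markers was 83892 and 71746 in the control and 62315 and 49309 in the 7KC libraries. Without overlap, 9 of the 12 were lower and 0 higher (5 and 1 on the same-sum scale). None of the 12 was listed at 0 in any library. Alb was the largest part of that sum and overlapped, at 41547.4 and 25202.5 FPKM in the control and 26969.1 and 18988.4 FPKM in the 7KC libraries. The sum of 10 markers of monocytes and recruited macrophages was 620 and 370 in the control and 1142 and 1825 in the 7KC libraries, with 7 of the 10 higher without overlap (9 on the same-sum scale) and a median log2 change of 1.52. Lyz2 alone made up most of that sum, at 538 and 321 FPKM in the control and 995 and 1583 FPKM in the 7KC libraries. Of 9 T and NK cell markers, all were higher without overlap on both scales, with sums of 20.3 and 14.4 FPKM against 53.4 and 42.7 FPKM. The 8 resident Kupffer cell markers summed to 316 and 322 FPKM in the control and 366 and 553 FPKM in the 7KC libraries, with 3 higher and 2 lower without overlap (4 and 0 on the same-sum scale). All tested genes gave 25.1% higher and 27.4% lower on the deposited scale, and 46.5% and 7.86% on the same-sum scale.

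On the deposited scale, the order of the 7KC libraries differed from gene to gene. Hmox1, like the macrophage and Kupffer cell sums, was highest in 7KC replicate 2, with 7KC replicate 1 next. Nfe2l2, Nqo1 and Gclc were nearly level between the 7KC libraries on that scale, and Srxn1 was higher in 7KC replicate 1. The macrophage sum was 1142 in 7KC replicate 1 and 1825 in 7KC replicate 2. Summed over all genes, FPKM was lower in 7KC replicate 2 (557138) than in 7KC replicate 1 (619828). Same-sum scaling therefore raises 7KC replicate 2 against 7KC replicate 1. On that scale Hmox1, Nfe2l2, Nqo1 and Gclc were higher in 7KC replicate 2, and so, by little, was Srxn1. The differing orders of these genes thus held on the deposited scale alone. The part of these cell type shifts in the values of the 10 genes was not tested. The sums of the other lists overlapped between groups for B cells (2.26 to 7.03 FPKM over the 4 libraries), endothelial cells (89.3 to 129), stellate cells (171 to 236) and erythroid cells (104 to 209). Cholangiocyte markers summed to 89.4 and 57.7 FPKM in the control and 168 and 368 FPKM in the 7KC libraries. Spp1, which macrophages also express, made up nearly all of that sum at 85.6 and 54.1 against 165 and 363 FPKM, while Krt19 was lower without overlap on the deposited scale and Epcam and Krt7 overlapped. Neutrophil markers summed to 30.8 and 17.1 against 34.3 and 35.0 FPKM. No marker in any of the 10 lists passed the threshold. The B cell gene Pax5 was listed at 0 in at least 1 library.

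**Figure D3:**
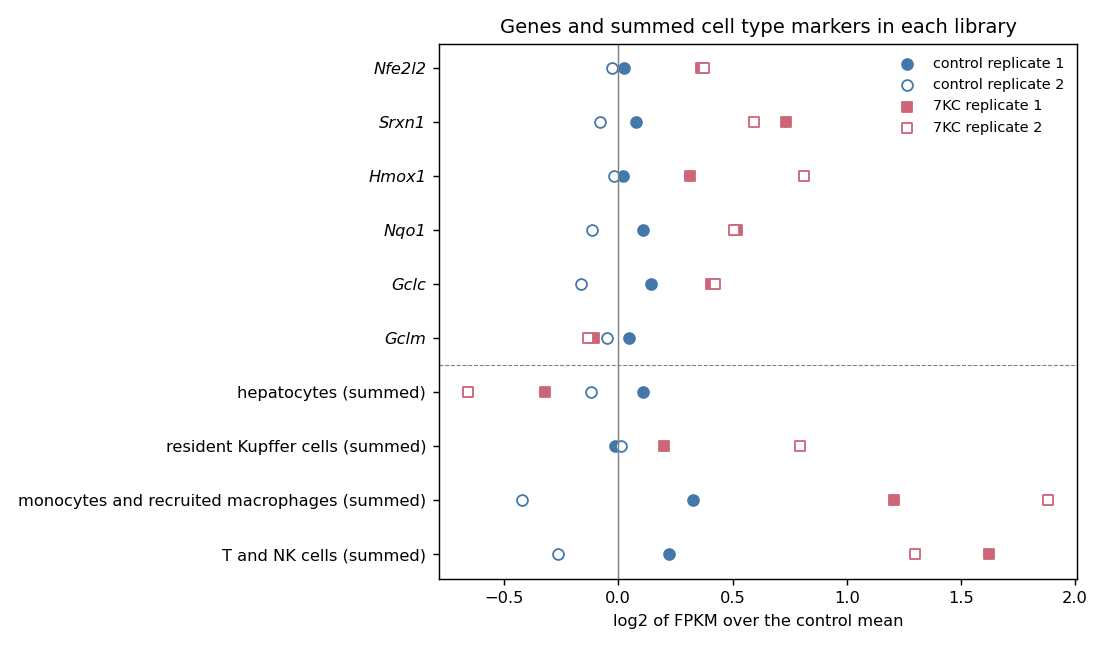
Log2 of FPKM over the control mean (x axis) in each library for Nfe2l2, Srxn1, Hmox1, Nqo1, Gclc and Gclm and, under the dashed line, for the summed FPKM of 4 marker lists; circles are control and squares 7KC libraries, filled for replicate 1 and open for replicate 2. Hmox1 and the Kupffer cell and macrophage sums are highest in 7KC replicate 2, and the hepatocyte sum is lowest there. On this deposited scale Nfe2l2, Nqo1 and Gclc differ little between the 7KC libraries.

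The wider pathway was described with a list of 112 further genes of Nrf2 regulation and antioxidant defense, of which 107 were tested. None of them passed the threshold on the deposited scale. Both 7KC libraries lay above the controls for 22 (20.6%) and below them for 35 (32.7%), next to the 25.1% and 27.4% of all tested genes, with a median log2 change of -0.09. After libraries were brought to the same sum, 43 lay above and 12 below, where all tested genes gave 46.5% and 7.86%, and 2 genes passed, Gsta1 and Pgd. The median was then 0.11, under the 0.17 of all tested genes, as the deposited median lay under theirs. The 5 genes too low to test were Ggt1, Mgst2, Aldh3a1, Alox12 and Alox15. Counts of the role groups are given on the deposited scale and then on the same-sum scale.

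Regulators and partners of Nrf2 showed no gene higher without overlap and 5 of 10 lower, with a median log2 change of -0.16, but 3 higher and 2 lower with a median of 0.04 on the same-sum scale. Keap1, the sensor that holds Nrf2, was at 17.4 FPKM in both control libraries and at 16.6 and 17.5 FPKM in the 7KC libraries (log2 change -0.03 ± 0.11 SE, limma adjusted p = 0.915). On the same-sum scale its change was 0.18, and it was higher without overlap. Bach1, the repressor, overlapped widely at 10.6 and 13.1 against 15.5 and 9.73 FPKM. The small Maf gene Maff was at 10.5 and 14.1 FPKM in the control and 9.05 and 7.67 FPKM in the 7KC libraries (log2 change -0.52 ± 0.18 SE, limma adjusted p = 0.234), and the change was -0.32 without control replicate 2. Its relative Mafg was at 30.4 and 27.0 against 24.8 and 25.1 FPKM, with a log2 change of -0.20 that was 0.01, with overlap, on the same-sum scale and -0.11 without control replicate 1.

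Of 8 tested genes of glutathione synthesis and recycling, 2 were higher and 3 lower without overlap (3 and 0 on the same-sum scale). Gsr, which returns oxidized glutathione to its reduced form, was at 26.2 and 23.7 FPKM in the control and 31.3 and 30.3 FPKM in the 7KC libraries (log2 change 0.30 ± 0.11 SE, limma adjusted p = 0.261). Glrx5, a mitochondrial glutaredoxin of iron-sulfur cluster assembly, was at 113 and 126 against 99.9 and 95.04 FPKM, with overlap on the same-sum scale.

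Glutathione transferases, which couple glutathione to electrophiles, divided, with 4 of 20 higher and 7 lower without overlap (7 and 3 on the same-sum scale). Gsta1 was at 2.96 and 1.33 FPKM in the control and 8.18 and 7.78 FPKM in the 7KC libraries, 3.72-fold between the means. Its log2 change of 1.75 ± 0.31 (SE) had the smallest adjusted p of the list, 0.0742 by limma. Over 12 other settings of the processing that adjusted p ran from 0.0108 (without control replicate 1) to 0.387 (without 7KC replicate 2), and it was 0.0403 on the same-sum scale. Gstm7 lay at the other end, at 44.2 and 47.9 against 36.6 and 30.6 FPKM (log2 change -0.45 ± 0.13 SE, limma adjusted p = 0.188). Control replicate 2 stood low in some transferases, a pattern picked out after the values were seen: Gsta2 was at 44.1 FPKM in control replicate 1 and 8.86 FPKM in control replicate 2. Alpha and mu class transferases are close paralogs, and reads could have been split between them, so the values of single members are uncertain.

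Thioredoxins, peroxiredoxins and their partners had 2 of 16 genes higher and 8 lower without overlap and a median log2 change of -0.16, or 4 higher and 3 lower with a median of 0.04 on the same-sum scale. Txn1, the cytosolic thioredoxin that Txnrd1 reduces, was at 218 and 190 FPKM in the control and 288 and 242 FPKM in the 7KC libraries (log2 change 0.37 ± 0.15 SE, limma adjusted p = 0.289; 0.25 without 7KC replicate 1). Prdx4, the peroxiredoxin of the endoplasmic reticulum, was at 105 and 97.8 against 89.6 and 66.6 FPKM.

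Among 10 peroxidase, catalase and superoxide dismutase genes, 2 were higher and 4 lower without overlap (4 and 3 on the same-sum scale). Gpx2, a glutathione peroxidase best known from gut epithelium, was at 0.407 and 0.168 FPKM in the control and 1.19 and 1.94 FPKM in the 7KC libraries. Its control values lay under the filter of 0.5 FPKM, so it was kept only through the 7KC libraries, and its limma result is not used. It remains in the counts of genes higher without overlap, here and for the whole pathway list. Its fitted log2 change depended on the pseudocount, from 0.98 with 1 FPKM to 2.14 with 0.1 FPKM. Cat, the abundant peroxisomal catalase of hepatocytes, was at 1011 and 1032 against 885 and 743 FPKM (log2 change -0.33 ± 0.16 SE, limma adjusted p = 0.355), and the change was -0.21 without 7KC replicate 2 and -0.13 on the same-sum scale.

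The NADPH supply list, which feeds glutathione and thioredoxin reductases, had 3 of 7 genes higher and 1 lower without overlap (4 and 0 on the same-sum scale). G6pdx, the entry enzyme of the pentose phosphate pathway, was at 5.18 and 3.98 FPKM in the control and 8.05 and 10.4 FPKM in the 7KC libraries, 2.02-fold between the means (log2 change 0.94 ± 0.19 SE, limma adjusted p = 0.0966). Pgd, the next oxidative enzyme of that pathway, named after its values were seen, was at 24.5 and 22.2 against 37.7 and 35.0 FPKM (log2 change 0.63 ± 0.12 SE, limma adjusted p = 0.082). Both enzymes were higher in each 7KC library than in either control library. Idh1, which makes NADPH in the cytosol, was at 124 and 127 against 95.9 and 103 FPKM (log2 change -0.34 ± 0.11 SE, limma adjusted p = 0.221), with overlap on the same-sum scale.

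Of 9 heme and iron genes, 3 were higher and 2 lower without overlap (5 and 0 on the same-sum scale). Slc48a1, a heme transporter of macrophage phagolysosomes, was at 21.9 and 21.6 FPKM in the control and 27.8 and 34.1 FPKM in the 7KC libraries (log2 change 0.49 ± 0.14 SE, limma adjusted p = 0.168), with the higher value, as for Hmox1, in 7KC replicate 2. Ncoa4, the receptor for autophagy of ferritin, was at 65.8 and 65.5 against 47.8 and 58.3 FPKM, with overlap on the same-sum scale. Genes of detoxification and export had 5 of 18 higher and 4 lower without overlap (9 and 1 on the same-sum scale). At their ends were Cbr3, a carbonyl reductase, at 2.07 and 1.51 against 3.34 and 4.45 FPKM (log2 change 0.94 ± 0.21 SE, limma adjusted p = 0.109), and Nqo2, the relative of Nqo1, at 28.3 and 36.5 against 26.4 and 22.2 FPKM (log2 change -0.40 ± 0.17 SE, limma adjusted p = 0.301). Cbr3 was higher without overlap on both scales, while Nqo2 was lower without overlap on the deposited scale alone, with a log2 change of -0.20 on the same-sum scale and -0.22 without control replicate 2.

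The lipid peroxidation and ferroptosis list, which surrounds Gpx4, had none of its 7 tested genes higher and 1 lower without overlap (3 and 0 on the same-sum scale). The lower gene was Dhodh, a mitochondrial enzyme of pyrimidine synthesis, at 3.85 and 3.21 against 2.75 and 2.70 FPKM (log2 change -0.32 ± 0.15 SE, limma adjusted p = 0.334; -0.20 without control replicate 1). Of the 2 metallothioneins, Mt2 was at 242 and 227 FPKM in the control and 284 and 440 FPKM in the 7KC libraries (log2 change 0.59 ± 0.23 SE, limma adjusted p = 0.276), and Mt1 overlapped. The log2 change of Mt2 was 0.27 without 7KC replicate 2 and 0.90 without 7KC replicate 1.

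**Figure D4:**
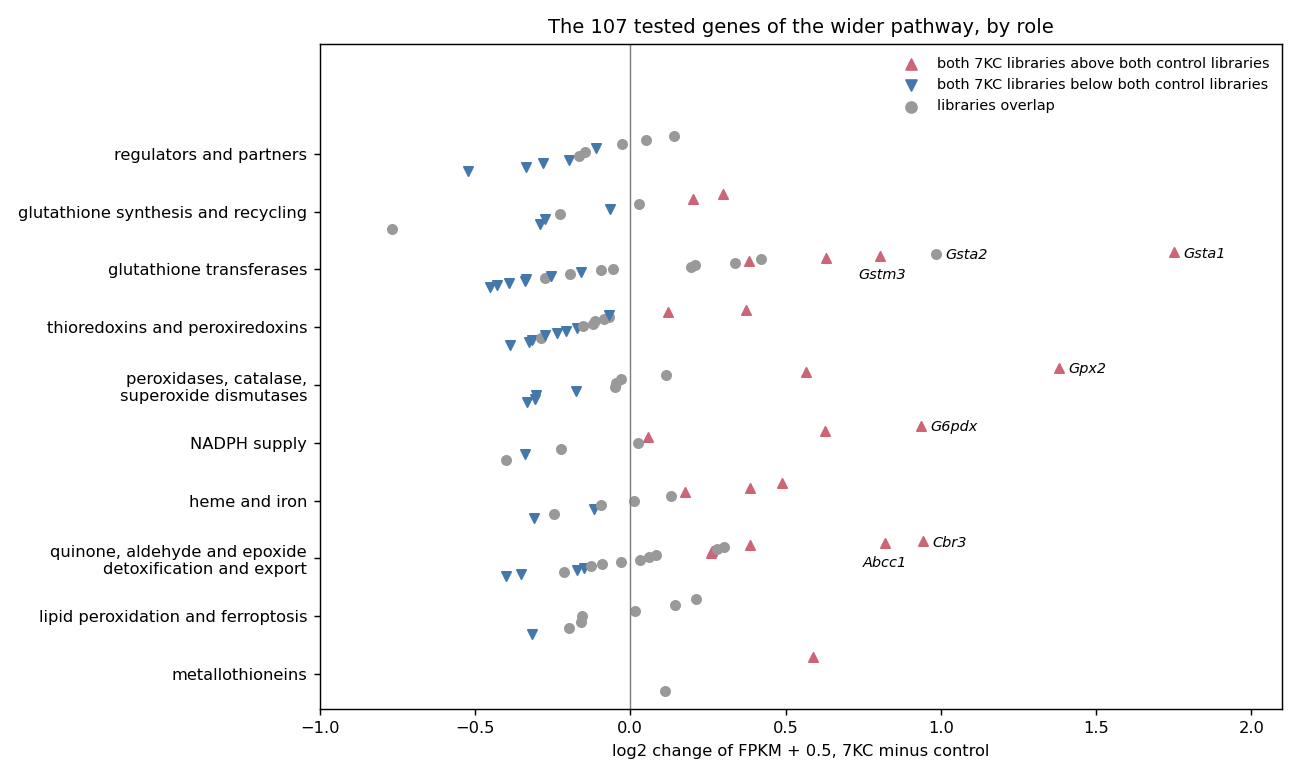
Log2 change of FPKM + 0.5, 7KC minus control (x axis), of the 107 tested genes of the wider pathway, 1 point a gene, in rows by role; triangles mark genes whose 2 libraries a group do not overlap, grey points those that do. Most points lie near 0, with Gsta1 at 1.75 farthest to the right. Gpx2, at 1.38, was kept only through the 7KC libraries, and its value depends on the pseudocount. The regulators hold no point that is higher without overlap on this scale, against 3 on the same-sum scale.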

How the data were processed

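Total RNA of 4 liver samples was extracted and stranded mRNA libraries were sequenced as single-end reads. The authors mapped the reads to mm10 and deposited FPKM, 1 value per gene symbol and library. The submitters' processing notes name TopHat2 2.1.1, Bowtie2 2.2.8, SAMtools 0.1.18 and Cuffdiff 2.2.1. The gene annotation and the handling of multi-mapped reads and strand are not given in the sources used here, so paralogs may have exchanged reads. FPKM depends on all mapped reads of a library, so a few abundant genes can shift all others.

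No count model was applied, because FPKM are not counts. Values were analysed as log2(FPKM + 0.5), which understates changes of low genes, with limma 3.58.1 in R 4.3.3 (trended prior variance, group as the only term), on the 12299 genes averaging 0.5 FPKM or more. Residual degrees of freedom were 2 and prior ones 3.27. The Benjamini-Hochberg adjustment ran over all tested genes, with 0.05 as the threshold. The fit was also run on simulated data with the same spread for every gene and changes larger than those of the tested members. That run therefore does not cover changes of their size. Groups were taken from the labels. Mapped reads were recovered from low values of single-transcript genes, with GENCODE M21 lengths less 200 bases: 69.0% to 71.0% of values lay within 0.1 of a whole read, against medians of 13.2% to 13.7% at other depths. Gene positions are from the same annotation.

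The 10 genes, the pathway list and the 10 marker lists, written from general knowledge, were chosen with earlier results of these data known, and their counts are descriptions. Of 199 list names 196 were matched, 1 of them through an older symbol. From the pathway list, the text names Keap1, Bach1 and Mafg, genes past the threshold and, per role, the largest difference in each direction among tested genes without overlap. Alternatives varied the pseudocount, the filter, the scaling, the prior trend, the replicate block and each library.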

Additional observations from a re-analysis of the deposited data

How the results depend on the processing

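No alternative moved a member past the threshold except the same-sum scaling, which passed Srxn1. Of 347 alternative values of 29 single genes under 12 settings, 335 kept direction and side of the threshold, 3 passed it and 9 turned sign. The counts of all genes past the threshold moved most, from 59 higher and 3 lower to 111 higher with a pseudocount of 1 FPKM and to 39 and 1 without the prior trend. Scaling by the median ratio between libraries left them at 59 and 3, with 6 members higher and 1 lower without overlap. The counts of all genes past the threshold were 0 and 1 without the filter (limma, 16858 tested, 2634 at an unadjusted p under 0.05). They were 402 and 7 with libraries brought to the same sum, where 1 member and 2 pathway genes passed, no member and 12 pathway genes were lower without overlap, 43 pathway genes were higher, the medians were 0.57 for the members and 0.11 for the pathway genes, and Gclm (0.086), Keap1 (0.18) and Mafg (0.0066) turned sign.

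With the replicate number as a block, 0 genes were higher and 0 lower (limma, 1851 at an unadjusted p under 0.05). Deviations of same-numbered libraries correlated at -0.14. With 2 libraries a group this cannot settle whether the numbers pair the libraries, which the labels do not say. The crossed pairing, added after seeing the data, gave 551 higher and 37 lower, with 4 pathway genes higher and 1 lower.

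Leaving out 1 library at a time, where the lone library is assumed to vary like the others, gave 2 (without 7KC replicate 2) to 404 (without control replicate 1) genes higher and 1 (without 7KC replicate 1) to 54 (without control replicate 1) lower, with 0 members and 0 to 4 pathway genes past the threshold. Members without overlap were 6 to 8 higher and 1 to 2 lower, pathway genes 24 to 43 higher and 45 to 56 lower, where all tested genes gave 33.5% to 37.6% higher and 37.8% to 41.9% lower, since a lone library overlaps less often by construction. Medians ran from 0.30 to 0.48 for the members and from -0.11 to -0.039 for the pathway genes. Leaving out either control library let Slc7a11 past the filter through its 7KC values. It therefore enters the member counts of those 2 settings and both ends of the member medians. With the same tested members as in the main fit, the median was 0.37 without 7KC replicate 1 and 0.31 without 7KC replicate 2. Without 7KC replicate 1, Bach1 turned to -0.27 (up to 0.37 without 7KC replicate 2), Gpx4 to -0.0024, Sod2 to -0.048 and Keap1 to 0.0089 (down to -0.063 without 7KC replicate 2). Leaving out control replicate 1 gave -0.09 for Bach1 and 0.20 for Gpx4, and leaving out control replicate 2 gave -0.10 for Gpx4. The cause of these changes was not tested. With 2 libraries a group, differences of the size seen in Nfe2l2 or Nqo1 could not be told from the spread after adjustment.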
